A study of Homo sapiens with 18 samples.

Results

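In 2 human cell lines that were given different estrogen receptors, 61 genes responded to estradiol (E2) with opposite signs. They were chosen by their measured response, from 13505 genes with a detected probe. A gene was taken when the means of 3 arrays per group, on the log2 scale of the authors' processed values, changed by at least 0.4 in 1 direction in the line with estrogen receptor alpha (ERα) and by at least 0.4 in the other direction in the line with estrogen receptor beta (ERβ). In 38 genes E2 gave the higher level in the ERα line and the lower level in the ERβ line, and these are called the ERα-up genes. In 23 genes the signs were the reverse, and these are called the ERα-down genes. Because these values chose the genes, the E2 changes below are descriptions and carry no test.

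The cells were U2OS, an established human osteosarcoma line, carrying in every group a stable vector from which doxycycline, an antibiotic used as an inducer, switches on ERα or ERβ. Each of the 2 lines was grown without doxycycline (the uninduced state), with doxycycline, and with doxycycline and E2 together, and each of these 6 groups had 3 single-colour Illumina arrays, 18 in all. No sample used here had E2 without doxycycline or lacked a receptor vector. The sources used here give no dose and no treatment time, and do not say whether a line was 1 clone. Nor do they name separate cultures for the arrays of a group, so a p-value here rests on the scatter of arrays that may be technical repeats.

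Between 19834 and 22485 probes were detected per array (40.6% to 46.1%), arrays of a group correlated at 0.985 to 0.994, and log2 changes had a standard error (SE) of 0.139 in the median. The precision is limited by 3 arrays per group. Of 9 listed mesenchymal and osteoblast markers, 8 were detected on all 18 arrays, as were 3 of 8 epithelial markers (EPCAM, KRT8 and KRT18), 0 of 7 blood markers and 2 of 6 endothelial markers, while PTPRC, CD3E, CDH5 and ESRP1 were detected on none. The mean log2 level of ESR2, which encodes ERβ, was 11.26 in the uninduced ERβ line, 15.94 with doxycycline and 16.04 with E2 added, and its probe was detected on 0 of 3 uninduced ERα arrays. The kept ESR1 probe was detected on at most 2 of 3 arrays of any group, so it checks nothing about ERα. Array 5 (numbered as in the deposited table), from the doxycycline group of the ERβ line, stood apart for some of the genes below. Values without it are given below for CXCL8, CCL2, DDIT3 and G0S2. Other genes moved too. With and without array 5, the log2 change with E2 in the ERβ line was -0.65 and -0.45 for BMP2. It was 1.06 and 0.80 for CX3CL1, 0.76 and 0.52 for SHISA2, -0.99 and -0.74 for MARCHF4 and -0.65 and -0.92 for PPARGC1B.

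Both receptors are transcription factors that bind estradiol and then recruit coactivators or corepressors. They bind DNA directly at estrogen response elements, which are short palindromes around a spacer, and they also act through other factors already on DNA, such as the AP-1 dimers of Fos and Jun proteins. Classical estrogen targets such as GREB1 respond to either receptor. The genes described here include cytokines, the growth regulator MYC, ribosome assembly factors and inhibitors of signalling.

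RefSeq promoters (GRCh38.p14, 250 bases before to 50 bases after the annotated start) were at hand for 32 of the 38 ERα-up genes and 20 of the 23 ERα-down genes. Motifs were searched on both strands. The estrogen response element GGTCANNNTGACC was found in 0 of 32 and 0 of 20, also with 1 mismatch allowed, against 0.0183% (0.521% with a mismatch) of 10937 promoters of all genes tested. The AP-1 motif TGACTCA was found in 1 of 32 (CXCL8) and in 3 of 20 (IL11, DDIT3 and SLC2A12), against 3.44% of all. The E-box CACGTG, the motif of MYC and its partners and a search added after the genes had been seen, was found in 3 of 32 (PPAT, MARS2 and FAM174B) and in 0 of 20, against 9.9% of all. A match is a run of letters in this window and not a measured binding site. In IL11 the AP-1 letters read TGAGTCA, the same motif on the other strand, and in CXCL8, DDIT3 and SLC2A12 they read TGACTCA. The promoters below are shown because their genes carry results below. They belong to 2 cytokines with the AP-1 letters and an enzyme of purine synthesis with the E-box. Each is written 5′ to 3′ on the gene's strand, with the motif in capitals.
CXCL8 (chr4:73740319-73740618, plus strand): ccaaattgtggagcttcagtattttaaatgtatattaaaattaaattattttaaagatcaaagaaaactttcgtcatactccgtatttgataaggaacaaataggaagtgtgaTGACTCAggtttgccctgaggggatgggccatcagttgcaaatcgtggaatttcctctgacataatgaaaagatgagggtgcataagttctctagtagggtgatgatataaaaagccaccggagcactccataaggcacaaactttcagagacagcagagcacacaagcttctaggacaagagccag
IL11 (chr19:55370414-55370713, minus strand): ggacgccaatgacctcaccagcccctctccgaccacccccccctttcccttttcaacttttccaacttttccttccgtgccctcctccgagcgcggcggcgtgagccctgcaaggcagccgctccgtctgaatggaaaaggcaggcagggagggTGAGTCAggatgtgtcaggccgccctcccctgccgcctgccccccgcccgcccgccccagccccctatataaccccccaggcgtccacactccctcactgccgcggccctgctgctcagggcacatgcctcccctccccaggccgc
PPAT (chr4:56435566-56435865, minus strand): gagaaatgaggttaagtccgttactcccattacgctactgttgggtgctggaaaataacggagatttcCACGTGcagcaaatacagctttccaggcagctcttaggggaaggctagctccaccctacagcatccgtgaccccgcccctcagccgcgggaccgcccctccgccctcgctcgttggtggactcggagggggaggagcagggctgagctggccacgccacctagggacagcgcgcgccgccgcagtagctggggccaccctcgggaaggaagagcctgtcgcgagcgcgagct
The first base of the motif lay at -137 in CXCL8, -96 in IL11 and -182 in PPAT, counted from the annotated start.

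**Figure D1:**
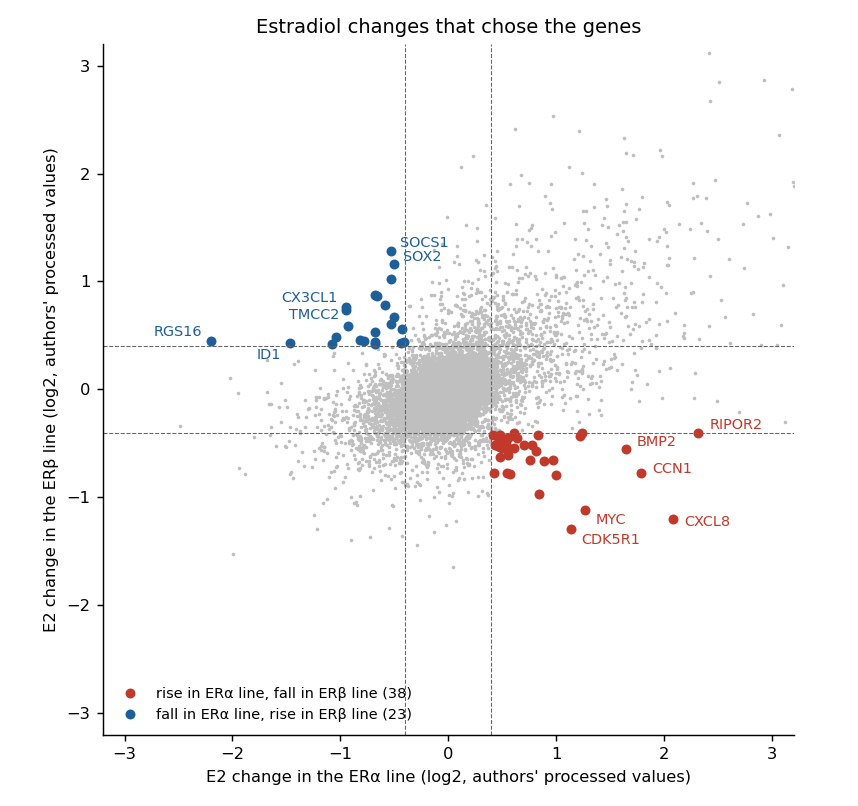
Change with E2 in the ERα line (horizontal) and in the ERβ line (vertical), log2 of the authors' processed values, means of 3 arrays. Each point is a gene, dashed lines stand at 0.4 and -0.4, and 19 of 13505 genes lie outside the axes. The 38 ERα-up genes (red) fill the lower right corner and the 23 ERα-down genes (blue) the upper left.

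All further levels and changes are log2 values after normexp background correction and quantile normalization of the authors' probe intensities, except where the authors' processed values are named, and ± gives the SE of the limma fit with 3 arrays per group. On that scale the 33 ERα-up genes detected in the ERα line with doxycycline changed there with E2 by 0.42 to 2.13, and the median of all 38, with the other 5 at their lower bounds, was 0.63. In the ERβ line the 38 changed by -1.35 to -0.41 (median -0.60). The ERα-down genes changed by -2.30 to -0.43 (median -0.70) and by 0.43 to 1.72 (median 0.66). Over all genes the medians were -0.03 in both lines. The arrays with and without E2 did not overlap in both lines for 33 of the 38 and 20 of the 23, and this held for 16.1% of all genes; since these arrays chose the genes, nothing is read from that count. In the whole fit, limma with Benjamini-Hochberg adjustment called 10.9% of genes higher and 11.1% lower with E2 in the ERα line, and 6.98% higher and 6.84% lower in the ERβ line.

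Secreted signals made up 7 of the 38 ERα-up genes. CXCL8 encodes the neutrophil chemoattractant interleukin 8. Its log2 level in the ERα line was 11.12, 10.67 and 10.77 uninduced, 11.41, 11.38 and 11.54 with doxycycline, and 13.58, 13.50 and 13.64 with E2 added. Levels in the ERβ line were 12.36, 11.80 and 12.18 uninduced, 12.43, 13.66 and 12.07 with doxycycline, and 11.52, 11.33 and 11.63 with E2 added. E2 thus gave the highest levels in the ERα line and the lowest in the ERβ line, with no overlap of either pair of groups. The change was 2.13 ± 0.29 in the ERα line, 4.38-fold, and -1.23 ± 0.29 in the ERβ line. Array 5, at 13.66, set much of the second value, which was -0.76 without it.

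CCL2, the monocyte chemoattractant, had levels of 8.69, 8.75 and 8.91 uninduced, 8.94, 9.09 and 8.95 with doxycycline, and 9.84, 10.04 and 9.98 with E2 added in the ERα line. The ERβ line gave 10.37, 10.33 and 10.40 uninduced, 8.33, 8.98 and 8.09 with doxycycline, and 7.86, 7.91 and 7.92 with E2 added. There the larger step came with doxycycline alone, which went with a change of -1.90, 3.73-fold, and the further change with E2 was -0.57 (-0.31 without array 5). IL12A, which encodes the p35 subunit of interleukin 12, was not above background on any ERα array without E2 and was at 7.57, 7.66 and 7.68 with it, at least 2.50-fold higher. On ERβ arrays the level was 8.05, 8.01 and 7.83 uninduced, 8.51, 7.87 and 8.80 with doxycycline, and 7.69, 7.28 and 7.27 with E2 added.

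BMP2, the bone-inducing growth factor, stood at 9.25, 9.23 and 9.24 uninduced, 9.43, 9.58 and 9.48 with doxycycline, and 11.17, 11.39 and 11.28 with E2 added in the ERα line. ERβ arrays read 10.36, 10.22 and 10.21 uninduced, 9.52, 10.01 and 9.28 with doxycycline, and 9.12, 9.01 and 8.72 with E2 added. E2 changed it by 1.79 ± 0.15 and -0.65 ± 0.15. The ERα line therefore ended with the highest BMP2 level and the ERβ line with the lowest, although the uninduced lines had the reverse order.

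CCN1, a matricellular protein that signals through integrins, and BDNF, a neurotrophin, followed another course. Levels of CCN1 in the ERα line were 12.29, 12.60 and 12.21 uninduced, 12.56, 12.90 and 12.56 with doxycycline, and 14.52, 14.64 and 14.26 with E2 added. Its ERβ levels were 13.10, 13.25 and 12.85 uninduced, 15.31, 15.24 and 15.07 with doxycycline, and 14.56, 14.39 and 14.34 with E2 added. Doxycycline without added E2 went with a CCN1 level 4.40-fold higher in the ERβ line, 2.14 on the log2 scale, and the E2 change there was -0.78. In the ERα line the change came with E2 instead, at 1.80 ± 0.14. BDNF showed the same order, with a doxycycline change of 1.53 in the ERβ line, then -0.90 with E2, against 1.20 with E2 in the ERα line. Further BDNF probes gave weaker E2 changes, in the ERα and the ERβ line 0.11 and -0.28, 0.53 and -0.58, and 0.74 and -0.58. FGFBP1, a carrier that releases fibroblast growth factors from the matrix, was not above background in the uninduced ERβ line and was at 10.04, 10.05 and 9.54 with doxycycline, at least 11.04-fold higher. With E2 it was at 9.18, 9.36 and 9.12 there, and at 6.40, 6.41 and 6.88 in the ERα line, where it was at least 1.19-fold higher than without E2.

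**Figure D2:**
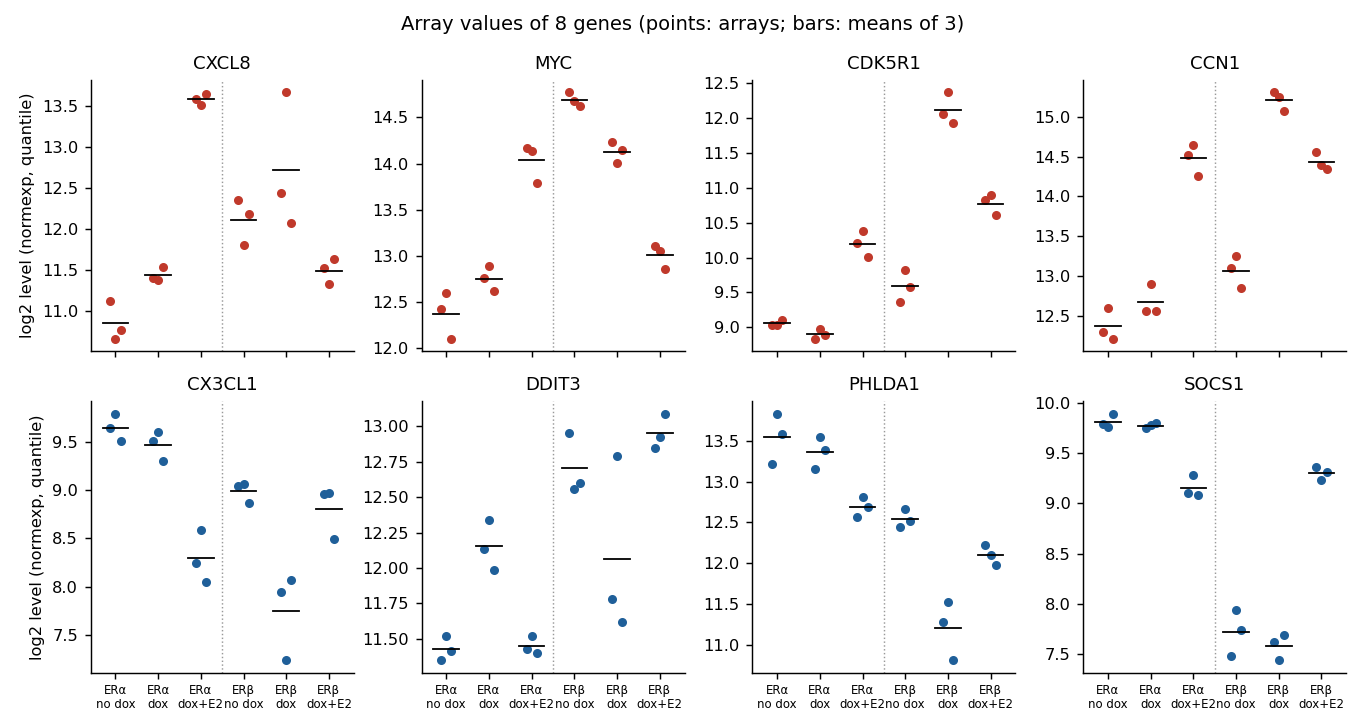
Log2 levels of 8 genes on the 18 arrays. Points are arrays, bars are means of 3, and the dotted line separates the ERα line (left) from the ERβ line (right). CXCL8, MYC, CDK5R1 and CCN1 are higher with E2 in the ERα line and lower in the ERβ line, and CX3CL1, DDIT3, PHLDA1 and SOCS1 show the reverse.

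MYC, the transcription factor that drives cell growth and ribosome production, was abundant in both lines and moved in both. Its log2 level in the ERα line was 12.43, 12.59 and 12.10 uninduced, 12.76, 12.89 and 12.62 with doxycycline, and 14.17, 14.14 and 13.79 with E2 added. Levels in the ERβ line were 14.77, 14.68 and 14.63 uninduced, 14.24, 14.00 and 14.15 with doxycycline, and 13.11, 13.05 and 12.86 with E2 added. The uninduced ERβ line held the highest MYC level of the 6 groups. From the uninduced state to E2 the level changed by -1.69 in the ERβ line and by 1.66 in the ERα line. With E2 the order of the lines was the reverse of the uninduced order. The E2 changes were 1.28 ± 0.13 (2.43-fold higher) and -1.12 ± 0.13 (2.18-fold lower). A second MYC probe gave 1.28 and -1.18.

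The ERα-up genes held 7 members that serve ribosomes, RNA or translation. They were the nucleolar helicase DDX21, the nucleolar protein LYAR, the small-subunit maturation factor TSR1, the snoRNP assembly factor ZNHIT6, the ribosome-recycling ATPase ABCE1, the mitochondrial methionyl-tRNA synthetase MARS2 and the snoRNA host gene SNHG15. Their E2 changes lay between 0.42 and 0.69 in the ERα line and between -0.88 and -0.43 in the ERβ line. Second probes had the same signs but partly other sizes. They gave 0.18 and -0.34 for TSR1, 0.50 and -0.16 for MARS2, 0.36 and -0.62 for LYAR and 0.48 and -0.49 for ABCE1. DDX21, for example, was at 12.98, 13.07 and 13.32 uninduced, 13.34, 13.27 and 13.52 with doxycycline, and 13.96, 13.93 and 13.91 with E2 added in the ERα line. The ERβ line gave 13.49, 13.72 and 13.81 uninduced, 13.62, 13.68 and 13.73 with doxycycline, and 13.30, 13.28 and 13.09 with E2 added. The 2 groups with E2 did not overlap with those with doxycycline alone in either line. Doxycycline alone changed the 7 genes by -0.53 to 0.22 in the ERβ line.

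Enzymes of nucleotide, polyamine and glucose metabolism were on the same side. PPAT, which catalyses the first committed step of purine synthesis, changed by 0.52 ± 0.10 and -0.57 ± 0.10. PNP, of purine salvage, changed by 0.51 and -0.52, and AMD1, of polyamine synthesis, by 0.56 and -0.53. UNG, which removes uracil from DNA, changed by 0.49 and -0.55, and further UNG probes gave 0.25 and -0.51, and 0.51 and -0.11. HK2, the inducible hexokinase of glycolysis, was at 9.23, 8.41 and 8.91 uninduced, 9.01, 8.58 and 9.01 with doxycycline, and 10.43, 9.85 and 10.64 with E2 added in the ERα line. On ERβ arrays the level was 10.88, 10.52 and 11.33 uninduced, 10.70, 11.01 and 11.46 with doxycycline, and 10.36, 10.25 and 11.18 with E2 added. The ERβ groups overlapped, and the change there ranged from -0.75 to -0.26 as single arrays were left out. HKDC1, a further hexokinase-like protein, changed by 1.36 and -0.56. PPARGC1B, a coactivator of mitochondrial biogenesis, changed by 0.89 and -0.65.

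The other genes of ribosome assembly were examined through a list written after the 61 genes had been seen, so their values carry no test. Of 44 listed genes 40 were measured, apart from the members, and 29 of these 40 had a change above 0 in the ERα line and below 0 in the ERβ line, as did 18.8% of all genes. Their medians were 0.16 and -0.43, the larger one on the ERβ side. POLR1B, a subunit of RNA polymerase I, changed by 0.37 and -0.83, and the pre-ribosome factors RRS1 and BYSL by 0.34 and -0.85 and by 0.39 and -0.68. These examples were picked after their values were seen. Of 22 listed genes of nucleotide and polyamine synthesis, 3 were members and 11 of the other 19 had these signs, with medians of 0.06 and -0.18. CTPS1, which makes cytidine triphosphate, changed by 0.38 and -0.36 and GART, a purine enzyme, by 0.04 and -0.43, both also picked after their values were seen.

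Several membrane, kinase and GTPase proteins completed the ERα-up genes. CDK5R1, the p35 activator of the kinase CDK5, was at 9.03, 9.03 and 9.11 uninduced, 8.83, 8.97 and 8.89 with doxycycline, and 10.21, 10.38 and 10.01 with E2 added in the ERα line. ERβ arrays read 9.36, 9.82 and 9.58 uninduced, 12.07, 12.38 and 11.93 with doxycycline, and 10.82, 10.89 and 10.61 with E2 added. Doxycycline alone went with a level 5.81-fold higher in the ERβ line (2.54 on the log2 scale). The E2 changes were 1.30 ± 0.13 and -1.35 ± 0.13, and a second probe gave 1.49 and -1.48. MARCHF4, a membrane-bound ubiquitin ligase, was 31.8-fold higher with doxycycline in the ERβ line, and its E2 changes were 1.40 and -0.99. RIPOR2, an inhibitor of the GTPase RHOA, was not above background on any ERα array with doxycycline and was at 9.31, 9.42 and 9.25 with E2, at least 8.06-fold higher. In the ERβ line RIPOR2 was at 6.80, 7.40 and 7.27 uninduced, 10.99, 10.86 and 10.64 with doxycycline, and 10.39, 10.41 and 10.40 with E2 added, an E2 change of -0.43 after a doxycycline change of 3.67.

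RND3 and RHOB are small GTPases with opposing effects on the actin cytoskeleton. RND3 changed with E2 by 0.62 ± 0.11 and -0.55 ± 0.11. RHOB was at 12.03, 11.63 and 12.35 uninduced, 12.33, 11.53 and 12.41 with doxycycline, and 12.78, 12.27 and 12.83 with E2 added in the ERα line. Its ERβ levels were 10.04, 10.10 and 10.67 uninduced, 10.79, 10.24 and 11.19 with doxycycline, and 10.20, 9.85 and 10.56 with E2 added. Its groups overlapped in both lines, and its E2 changes lay between 0.26 and 0.72 and between -0.78 and -0.31 as single arrays were left out. WWC1, a scaffold of the Hippo pathway, changed by 0.58 and -0.57, and LRP8, a reelin receptor, by 0.51 and -0.65. The membrane proteins TMEM158 and FAM174B changed by 0.48 and -0.55 and by 0.79 and -0.74, and TRIM61 by 0.71 and -0.67. TGIF2, a homeobox corepressor of TGF-beta signalling, changed by 0.53 and -0.53.

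The doxycycline step set the ERα-up genes apart from each other in the ERβ line. In 11 of the 38 doxycycline alone went with a level higher by 1.35 to 4.99 on the log2 scale: MARCHF4, FGFBP1, INMT, RIPOR2, G0S2, CDK5R1, ZNF395, CCN1, SP8, BDNF and DDAH1. In the ERα line the same 11 changed by -0.75 to 0.30 with doxycycline. There INMT, FGFBP1 and G0S2 were undetected both uninduced and with doxycycline. The -0.75 was RIPOR2, which was undetected with doxycycline. Over all genes the median doxycycline change in the ERβ line was -0.04. In 26 the ERβ line changed by less than 1 in either direction, and CCL2 alone was lower by more. In 5 of the 61, MYC, BMP2, CCL2, CDK5R1 and RIPOR2, the doxycycline arrays lay on opposite sides of the uninduced arrays in the 2 lines without overlap, as they did in 1.61% of all genes; nothing is read from that count. Among the 11, INMT (an indole N-methyltransferase), SP8 (a zinc finger factor of limb development) and DDAH1 (which degrades asymmetric dimethylarginine) changed with E2 by 1.89, 0.82 and 0.61 in the ERα line and by -0.87, -0.67 and -0.81 in the ERβ line. For INMT the ERα change was at least 1.52-fold. G0S2, an inhibitor of the lipase ATGL, changed by -0.50 in the ERβ line, but by -0.02 without array 5. This grouping was made after the values had been seen. The doxycycline arrays also entered the choice of the genes, so the counts are descriptions. The share of all genes with such a doxycycline step is not given here, so nothing is read from the 11.

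**Figure D3:**
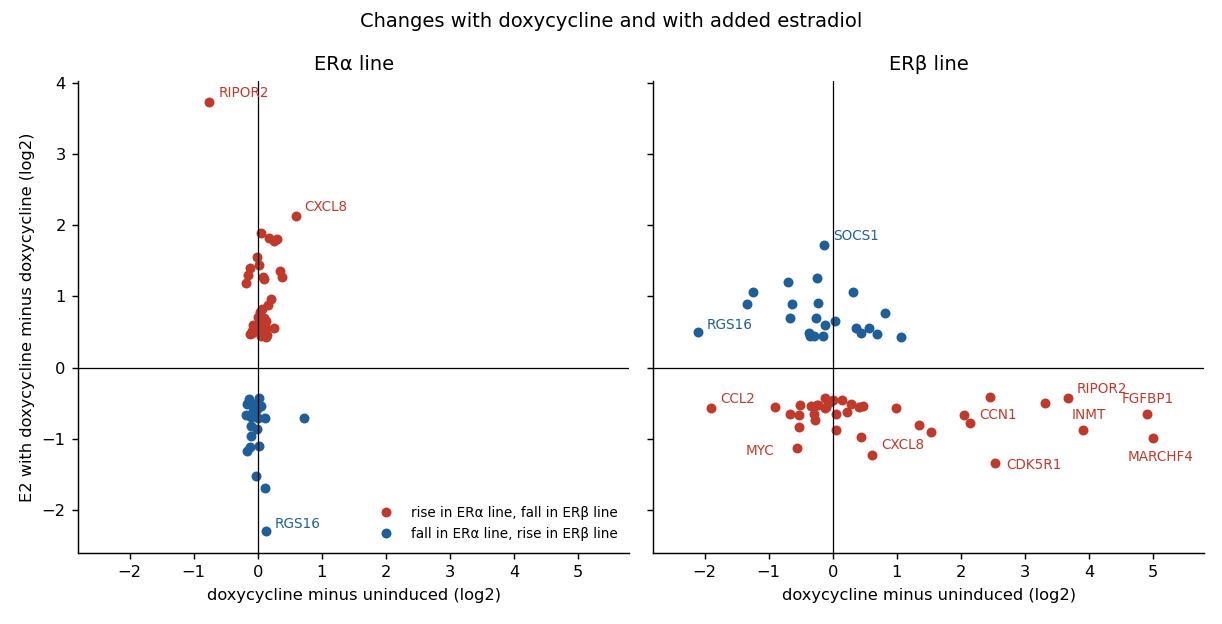
Change with doxycycline (horizontal) against the further change with E2 (vertical) for the 61 genes, log2, in the ERα line (left) and the ERβ line (right). In the ERα line the points lie close to 0 on the horizontal axis, between -0.75 and 0.73. In the ERβ line they spread from -2.11 to 4.99. IL12A, INMT, FGFBP1, G0S2 and RIPOR2 in the ERα line are drawn at their measured values although no array with doxycycline alone detected them.

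The ERα-down genes included 2 secreted signals. CX3CL1, or fractalkine, a chemokine that is also a membrane-bound adhesion molecule, was at 9.65, 9.79 and 9.50 uninduced, 9.51, 9.60 and 9.30 with doxycycline, and 8.24, 8.59 and 8.04 with E2 added in the ERα line. Levels in the ERβ line were 9.05, 9.06 and 8.87 uninduced, 7.94, 7.24 and 8.07 with doxycycline, and 8.96, 8.97 and 8.49 with E2 added. Doxycycline alone went with a change of -1.24 in the ERβ line, and the change with E2 was 1.06 ± 0.20 there, against -1.18 ± 0.20 in the ERα line. IL11, a cytokine of the interleukin 6 family, was at 7.89, 8.01 and 7.68 uninduced, 7.78, 7.78 and 7.78 with doxycycline, and 6.89, 7.23 and 7.19 with E2 added in the ERα line. The ERβ line gave 7.32, 7.55 and 7.64 uninduced, 7.24, 7.11 and 7.38 with doxycycline, and 7.94, 8.03 and 7.86 with E2 added. By the choice of the genes, IL11 moved opposite to CXCL8, CCL2 and IL12A in both lines.

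Inhibitors and adaptors of signalling made up 8 of the 23. SOCS1, which blocks JAK kinases downstream of cytokine receptors, was at 9.79, 9.76 and 9.89 uninduced, 9.75, 9.78 and 9.80 with doxycycline, and 9.10, 9.29 and 9.08 with E2 added in the ERα line. On ERβ arrays the level was 7.48, 7.93 and 7.74 uninduced, 7.62, 7.44 and 7.69 with doxycycline, and 9.36, 9.24 and 9.31 with E2 added. Its change in the ERβ line, 1.72 ± 0.11 or 3.30-fold, was the largest E2 change of the ERα-down genes there. RGS16, which shortens G protein signals, was at 12.08, 12.51 and 12.48 uninduced, 12.50, 12.55 and 12.39 with doxycycline, and 10.20, 10.26 and 10.06 with E2 added in the ERα line. ERβ arrays read 11.61, 11.85 and 11.77 uninduced, 9.67, 9.68 and 9.56 with doxycycline, and 10.17, 10.24 and 9.99 with E2 added. The ERα change of -2.30 ± 0.11, 4.94-fold, was the largest fall of the 23, and in the ERβ line doxycycline alone went with a change of -2.11, followed by 0.50 with E2. Both lines therefore ended near the same RGS16 level.

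PHLDA1, a pleckstrin homology domain protein, was at 13.22, 13.83 and 13.59 uninduced, 13.15, 13.54 and 13.39 with doxycycline, and 12.57, 12.82 and 12.68 with E2 added in the ERα line. Its ERβ levels were 12.44, 12.67 and 12.52 uninduced, 11.28, 11.52 and 10.81 with doxycycline, and 12.23, 12.10 and 11.97 with E2 added. SPSB1, a SOCS-box adaptor, changed by -0.82 and 0.47 with E2, the second between 0.31 and 0.65 as single arrays were left out. RASSF5, a Ras effector, changed by -0.59 and 0.66, but a second probe gave -0.35 and -0.78, so its opposite response held for 1 of 2 probes. CDC42EP4, an effector of the GTPase CDC42, and PHLDB1 changed by -0.69 and 0.44 and by -0.44 and 0.44. SHISA2, whose family retains Wnt and FGF receptors inside the cell as shown in Xenopus, changed by -0.96 ± 0.17 and 0.76 ± 0.17.

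Of 4 transcription regulators, DDIT3, the stress factor CHOP, was at 11.35, 11.52 and 11.41 uninduced, 12.13, 12.34 and 11.99 with doxycycline, and 11.43, 11.52 and 11.40 with E2 added in the ERα line. Levels in the ERβ line were 12.96, 12.56 and 12.60 uninduced, 11.78, 12.79 and 11.62 with doxycycline, and 12.85, 12.93 and 13.09 with E2 added. In both lines the change with doxycycline alone and the change with E2 had opposite signs, and array 5 of the ERβ line lay just below the E2 arrays. Without that array the E2 change in the ERβ line was 1.25 instead of 0.89. SOX2, a factor of stem and progenitor cells, was at 12.77, 12.58 and 13.28 uninduced, 12.77, 12.49 and 13.16 with doxycycline, and 12.07, 12.05 and 12.77 with E2 added in the ERα line. The ERβ line gave 10.05, 9.91 and 10.37 uninduced, 9.87, 9.58 and 10.15 with doxycycline, and 10.98, 10.94 and 11.47 with E2 added. Groups with and without E2 did not overlap for SOX2 in the ERβ line, but did in the ERα line. ID1, an inhibitor of basic helix-loop-helix factors, changed by -1.53 ± 0.17 and 0.45 ± 0.17, and TSC22D1 by -0.43 and 0.56. A further probe of TSC22D1 gave -0.48 and -0.10, and a pair of others had the signs of the chosen probe.

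The remaining 9 ERα-down genes changed by -1.69 to -0.51 in the ERα line and by 0.43 to 1.20 in the ERβ line. They included the glucose transporter SLC2A12 (-1.10 and 0.61), the sialyltransferase ST3GAL1 (-0.54 and 1.06), the cell surface hyaluronidase CEMIP2 (-0.51 and 0.69), and the autophagy regulator RUBCNL (-0.61 and 0.91). TMCC2 changed by -1.69 and 1.20, with 2 of 3 ERα arrays detected with E2 and 1 of 3 ERβ arrays detected with doxycycline. SUSD6 and LEMD1 changed by -0.71 and 0.56 and by -1.11 and 0.48, and KLHDC8B and DEPP1 by -0.86 and 0.48 and by -0.71 and 0.43. Doxycycline alone gave changes from -2.11 to 1.06 among all 23 in the ERβ line and from -0.19 to 0.73 in the ERα line.

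**Figure D4:**
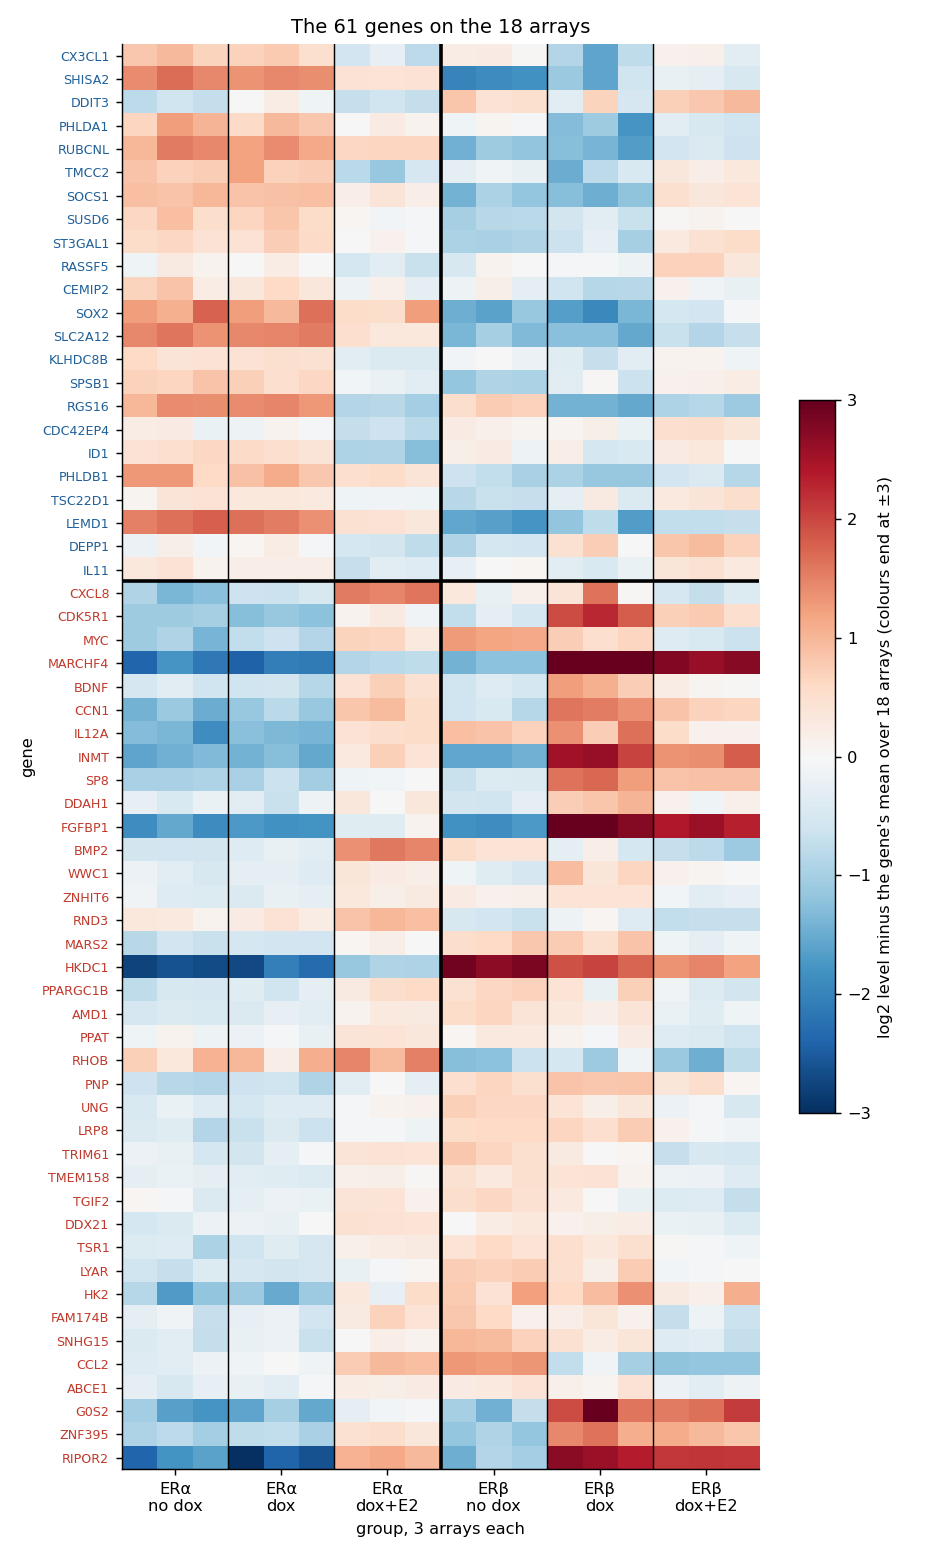
Log2 level of each of the 61 genes (rows) on each of 18 arrays (columns), minus the gene's mean over the arrays. Blue names are the 23 ERα-down genes and red names the 38 ERα-up genes, each ordered by the smaller of their E2 changes, and colours end at 3 and -3. Within the 3 ERα blocks on the left the E2 block differs from the doxycycline block in 1 direction, and within the 3 ERβ blocks on the right in the other.

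The uninduced lines were compared on 6 arrays that entered the choice of the genes only through the detection filter and the choice of probe. Without doxycycline most ERα-up genes were already higher in the ERβ line and most ERα-down genes lower. By limma with Benjamini-Hochberg adjustment over 13505 genes, 29 of the 38 ERα-up genes were higher in the ERβ line, 2 lower and 7 not called, against 26.4% higher and 24.1% lower of all genes. Of the 23 ERα-down genes, 1 was higher, 20 were lower and 2 were not called. PPAT, IL11 and ID1 were close to the threshold (limma adjusted p = 0.03074, 0.01752 and 0.04714) and lost their call when single uninduced arrays were left out, with adjusted p up to 0.182. The median difference, ERβ minus ERα, was 0.80 for the ERα-up genes, -1.004 for the ERα-down genes and 0.04 for all genes. The arrays belong to different lines, so receptor, leak of the vector and line background cannot be told apart; the ESR2 level of 11.26 in the uninduced ERβ line stands beside these values.

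HKDC1 differed most, at 11.79, 11.59 and 11.72 in the uninduced ERβ line and 6.13, 6.28 and 6.23 in the ERα line, where it was detected on 1 of 3 arrays. The ERα values lie at the detection limit, so the size of this difference depends on the floor (limma adjusted p = 4.08e-13). IL12A was at least 3.17-fold higher in the ERβ line (limma adjusted p = 1.611e-07). MYC was higher by 2.32 ± 0.13, limma adjusted p = 2.365e-09, with all 3 ERβ arrays above all 3 ERα arrays, HK2 by 2.06 ± 0.30, limma adjusted p = 4.118e-05 and CCL2 by 1.58 ± 0.16, limma adjusted p = 9.137e-07. The 7 ribosome, RNA and translation genes were all higher in the ERβ line, by 0.49 to 1.37. This was not particular to them: of the 40 other ribosome assembly genes 38 had a difference above 0 (median 0.78), of the 19 other nucleotide and polyamine genes 18 (median 0.75), and of 22 DNA replication and cell cycle genes 16 were called higher and 2 lower. The exceptions were RND3 and RHOB, which were lower in the ERβ line, with differences of -0.80 and -1.73 (limma adjusted p = 1.386e-05 and 0.0001793). BDNF, INMT, FGFBP1, DDAH1, WWC1, G0S2 and ZNF395 were not called, and 6 of these 7 are among the 11 genes with the large doxycycline step. INMT, FGFBP1 and G0S2 were not detected on any uninduced array of either line. A line difference could not be seen for them, so nothing is read from that overlap.

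Among the ERα-down genes SHISA2 was at 10.31, 10.42 and 10.48 in the ERβ line against 13.71, 13.97 and 13.75 in the ERα line (difference -3.41, limma adjusted p = 5.558e-10). The difference was -3.30 for LEMD1, -2.77 for SOX2, -2.697 for SLC2A12 and -2.56 for RUBCNL, with limma adjusted p from 1.051e-10 to 2.616e-07. DDIT3 was the exception, higher in the ERβ line by 1.28 ± 0.22, limma adjusted p = 0.0002018. RASSF5 and CDC42EP4 were not called, with differences of -0.20 and 0.08.

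**Figure D5:**
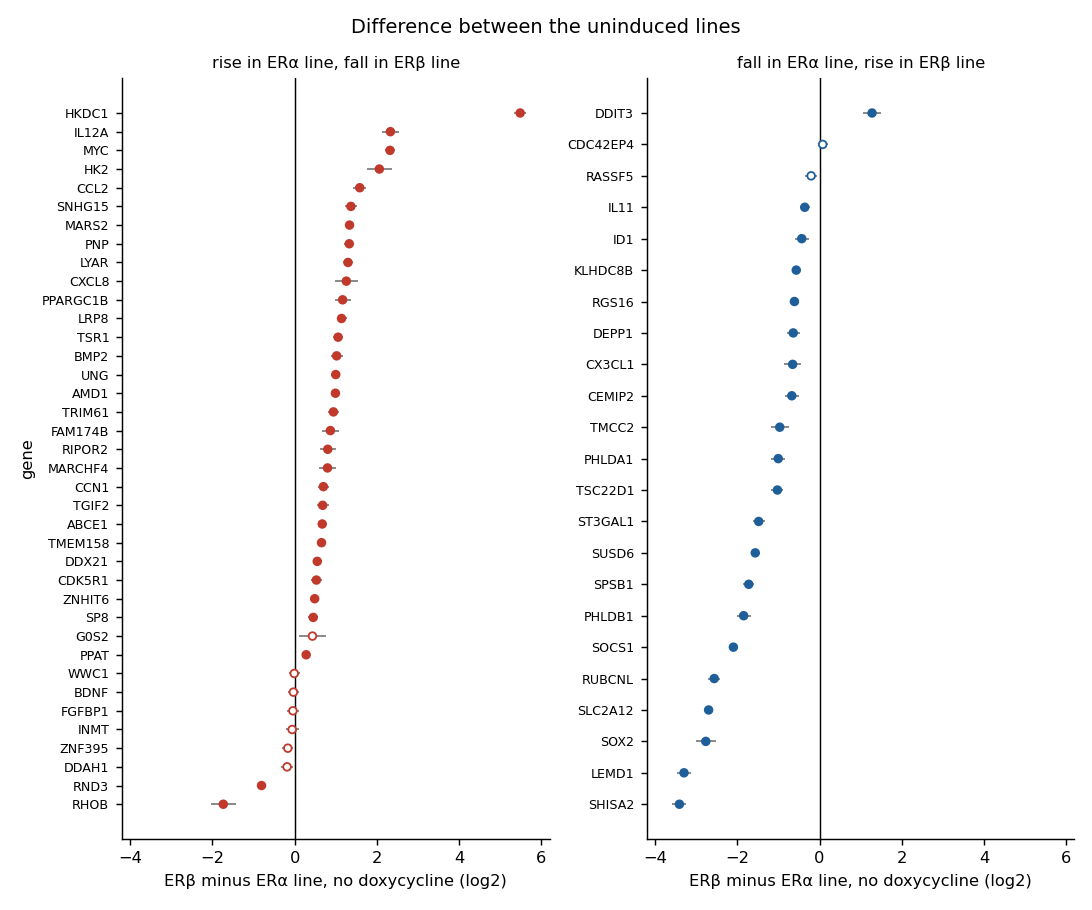
Difference between the uninduced lines, ERβ minus ERα, in log2, for the 38 ERα-up genes (left) and the 23 ERα-down genes (right). Bars are ± 1 SE with 3 arrays per line, and filled points passed the test. Most red points lie above 0 and most blue points below.

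With E2 the median line difference of each class was of the other sign. The genes with the largest uninduced differences, HKDC1, SHISA2, LEMD1, SOX2, SLC2A12 and RUBCNL, kept their sign. The median difference of the ERα-up genes, ERβ minus ERα, was 0.80 uninduced, 1.11 with doxycycline and -0.28 with E2, and that of the ERα-down genes was -1.004, -1.20 and 0.37. Of the 38 ERα-up genes, 30 lay higher in the ERβ line uninduced and 13 with E2. Of the 23 ERα-down genes it was 2 and 15. Of all genes 52.8% lay higher in the uninduced ERβ line, and their share with E2 is not given here. The step from doxycycline to E2 is fixed by the choice of the genes, so the counts with E2 are descriptions. Relative to its own uninduced state, each of the 38 was higher with doxycycline and E2 in the ERα line. In the ERβ line 26 were lower and 12 higher. Doxycycline alone changed the 38 by 0.06 in the median in the ERα line. That all 38 were higher there thus follows largely from the choice.

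How far single arrays carried the choice was examined with the authors' processed values, which give a replicate number to every array. For this, genes were chosen on 2 replicates only. In the replicate left out, 39 of 39, 38 of 42 and 42 of 46 ERα-up genes had the same signs. Of the ERα-down genes 26 of 27, 21 of 25 and 18 of 21 had them. Of all genes at most 20.4% had a given pair of signs there. Changes of at least 0.4 in both lines were seen there in 24, 17 and 20 of the ERα-up genes. For the ERα-down genes these numbers were 17, 11 and 10. The arrays of a group may be technical repeats, so nothing is read from these counts. In the normalized intensities no E2 change of the 61 turned sign when 1 array was left out, and it moved by over 1.5 times for 3 genes in the ERα line (SOX2, RHOB and SNHG15) and 9 in the ERβ line. The 9 were CXCL8, CCL2, G0S2, HK2, RHOB, SPSB1, ID1, LEMD1 and DEPP1. Of 24 further detected probes of 18 of the genes, 22 had the signs of the chosen probe, some with much smaller changes. These probes were read on the arrays that chose the genes, as were the changes with 1 array left out. Both are therefore descriptions. In the authors' processed values the E2 difference of G0S2 in the ERβ line was 0.38 in replicate 3.

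Genes next to the threshold show how the choice was bounded, in the authors' processed values. RIPOR2 (2.32 and -0.40) and ZNF395 (1.24 and -0.41) were just inside on the ERα-up side, and HSD17B6 (0.40 and -0.3952) and SMAD3 (0.39 and -0.49) just outside. IL11 (-0.41 and 0.44) and DEPP1 (-0.68 and 0.42) were just inside on the ERα-down side, and DAAM2 (-0.52 and 0.39) and CAP2 (-0.38 and 0.44) just outside. Of the 61 genes, 32 ERα-up and 22 ERα-down genes were detected on all 18 arrays. IL12A, INMT, FGFBP1, G0S2 and RIPOR2 passed the detection filter although no ERα array with doxycycline alone detected them, so that they could differ in 1 direction only in that line.

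Genes of wider pathway lists that were not members were counted by the signs of their E2 changes. A change above 0 in the ERα line and below 0 in the ERβ line, found in 18.8% of all genes, was seen in 4 of 12 cytokine and NF-κB genes, 7 of 22 immediate-early and AP-1 genes, 2 of 18 EGF ligand and MAPK feedback genes, 2 of 16 TGF-beta and YAP targets, 2 of 15 BMP and osteoblast genes, 1 of 22 classical estrogen targets and 9 of 22 DNA replication and cell cycle genes. Of 12 other measured cytokine and NF-κB genes, 3 rose and 0 fell with E2 in the ERα line, and 1 rose and 2 fell in the ERβ line (limma, over all genes). IL6 fell by 1.83 in the ERβ line (limma adjusted p = 1.782e-05) and changed by -0.42 in the ERα line, which was not called. PTGS2, the inducible cyclooxygenase, rose in both lines, by 1.02 and 0.80 (limma adjusted p = 0.000924 and 0.009045), and TNFAIP3, an inhibitor of NF-κB signalling, rose by 0.75 in the ERα line (limma adjusted p = 0.00959).

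Of 22 other immediate-early and AP-1 genes, 2 rose and 1 fell in the ERα line, and 5 rose and 6 fell in the ERβ line. KLF6 fell by 1.24 in the ERβ line, NR4A3, detected on 5 of 18 arrays, was called higher there, and the mRNA-decay factor ZFP36 rose in both lines, by 1.04 and 1.09. Of 18 other EGF ligand and MAPK feedback genes, 2 rose and 9 fell in the ERα line and 2 rose and 1 fell in the ERβ line. TGFA, an EGF receptor ligand, rose by 2.43 in the ERα line and changed by -0.08 in the ERβ line, where it was not called, ERBB3 fell by 1.52 and 0.82, and SPRY4 rose by 1.16 in the ERβ line.

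Of 16 other TGF-beta and YAP targets, 3 rose and 6 fell in each line. CCN2, a relative of CCN1, rose in both lines, by 0.78 and 0.62, and ID3, a relative of ID1, fell in both, by 0.87 and 0.76. SMAD3, a signal transducer of TGF-beta, rose by 0.41 in the ERα line (limma adjusted p = 0.001859) and fell by 0.51 in the ERβ line (limma adjusted p = 0.0005637). These 3 genes were picked after their values were seen. The largest called changes were those of TGFB2, which fell by 1.02 and 1.93, SMAD6, which fell by 1.54 and 1.03, and TGFBI, which fell by 1.53 and 0.53. Of 15 other BMP and osteoblast genes, 2 rose and 2 fell in the ERα line and 3 rose and 4 fell in the ERβ line. BMP4, unlike BMP2, rose in both lines, by 0.68 and 2.06, the BMP antagonist NOG fell in both, by 0.99 and 1.68, and PTH1R, the parathyroid hormone receptor, rose by 3.24 and 1.85.

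The list of classical estrogen targets held 0 of the 61 genes. MYC, a member, was placed in the immediate-early and AP-1 list instead, so this 0 depends on how the lists were drawn. Of 22 listed classical estrogen targets measured, 17 rose and 1 fell in the ERα line. In the ERβ line 13 rose and 0 fell, and the medians were 1.11 and 0.78. CA12, a carbonic anhydrase, rose by 3.78 and 1.70 (limma adjusted p = 3.94e-11 and 8.562e-07), and KRT19 and PDZK1, detected on 9 and 7 of 18 arrays, were called higher in both lines. The list of DNA replication and cell cycle genes also held none of the 61. Of 22 measured, 10 rose and 1 fell in the ERα line and 3 rose and 0 fell in the ERβ line, and E2F2 rose by 0.92 and 0.54, CCND1 by 0.85 and 0.80 and MCM2 by 0.71 in the ERα line, with -0.11 in the ERβ line, not called. Each of these counts stands beside the shares of all genes called, 10.9% and 11.1% in the ERα line and 6.98% and 6.84% in the ERβ line, and the lists were chosen with earlier results of these data known.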

How the data were processed

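Total RNA of 18 U2OS samples, labelled with biotin from 750 ng, was read on single-colour Illumina arrays, per the labels' protocols. The authors deposited a table of non-normalized probe intensity values and detection p-values, per the file headers, and a table of processed intensity values on a linear scale, made with lumi per the submitters' processing notes. The steps behind the processed values, their background correction and any centring are not given in the sources used here. Array columns 4 to 9 of the first table are known only by group.

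The members were found as described in the opening, from log2 of the processed values, with probes at a detection p-value below 0.01 on at least 3 of 18 arrays, 1 symbol (27578 of 48803 probes had 1, 13 several and 21212 none), and per gene the probe with the highest mean. The entrez identifiers of 27541 probes matched the reference gene table, which changed 0 symbols. The non-normalized intensities were corrected and normalized by neqc in limma 3.58.1 (R 4.3.3; offset 16). The 6 group means were fitted to all arrays with lmFit and eBayes (12 residual and 2.66 prior degrees of freedom) and adjusted by Benjamini-Hochberg over 13505 genes, threshold 0.05, 2-sided. On simulated data with 200 genes changed by 1 on the log2 scale in the uninduced comparison, 164 were recovered with 18 false calls. The false share of the calls was thus above the threshold of 0.05 there. Where a probe was below background on all arrays of a group, a fold is a lower bound against the lowest detected signal per array, the measured value being used where higher.

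The members and the gene lists were chosen with earlier results of these data known. Named genes were, per class, the 8 with the largest smaller change, the 5 largest uninduced differences each way, members of the lists, those next to the threshold, and up to 3 called non-members per list; others are said to be picked after their values were seen. Same-numbered uninduced arrays of the 2 lines deviated together in the non-normalized table (correlations 0.21, 0.43 and 0.53), so the numbers were taken as pairs, and a fit with a replicate block was run as an alternative. In the authors' processed values these correlations were -0.12, -0.17 and -0.11. Other alternatives changed the background correction, normalization, detection filter, probe rule, arrays fitted, threshold and single arrays left out. Sequences are RefSeq's. Figures were drawn with matplotlib 3.10.9.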

Additional observations from a re-analysis of the deposited data

Results flagged for a closer look

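In 5 members the 3 arrays with doxycycline lay on opposite sides of the uninduced arrays in the 2 lines, without overlap, as in 1.61% of all genes. The difference of the doxycycline change, ERβ line minus ERα line, was 2.697 for CDK5R1, -0.94 for MYC, -0.91 for BMP2, -2.11 for CCL2 and 4.43 for RIPOR2, in log2. These differences were not tested, since the doxycycline arrays entered the choice of the genes. RIPOR2 was detected on 2 of 3 uninduced ERα arrays and on 0 of 3 with doxycycline, so its change in that line lies near the background.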

How the results depend on the processing

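The number of genes with opposite responses depended on the values and threshold used: 138 with normexp and quantile-normalized values (all 61 among them), 131 at a threshold of 0.3 and 31 at 0.5, against 61. It was 66, 67 and 67 without replicate 1, 2 or 3, of which 56, 51 and 48 were among the 61. Of the members, 52 were called between the uninduced lines, and 48 to 52 under every alternative run. The 48 were of the 54 members detected on all 18 arrays. Under that filter 30.7% of all genes were called higher and 25.6% lower in the ERβ line. With the authors' processed values these shares were 33% and 29.8%. The fit of the 6 uninduced arrays with a replicate block called 50, without IL11 and PPAT (limma adjusted p = 0.0744 and 0.0642). Without the block the fit of these arrays also called 50 and also lost IL11 and PPAT (limma adjusted p = 0.0724 and 0.103), and the block on the authors' processed values called 52, so the block itself lost no call among the members. ID1, IL11, PPAT, MARCHF4 and CDK5R1 lost their call under at least 1 alternative (limma adjusted p 0.0637 to 0.267), ID1 under any 1 uninduced array left out except ERβ replicate 2. In the whole table, E2 calls numbered 2975 in the ERα line and 4683 with the authors' processed values, and 1867 in the ERβ line, 3180 with the authors' processed values and 1070 with only the arrays compared. The cause was not tested. Single arrays left out gave 2346 to 2620 and 1389 to 1781.

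Reversed signs were found among uncalled uninduced differences near 0 and in RASSF5. With a median shift in place of quantile normalization the difference was 0.0441 for INMT, 0.0525 for FGFBP1 and 0.061 for WWC1. With probes averaged per gene it was 0.0816 for RASSF5 and 0.097 for BDNF, and the E2 change of RASSF5 in the ERβ line was -0.0595. Without single uninduced replicates it ranged from -0.1106 to 0.0795 for WWC1, from -0.0895 to 0.042 for BDNF, from -0.1003 to 0.0717 for FGFBP1, from -0.0715 to 0.1545 for CDC42EP4 and from -0.1254 to 2e-04 for INMT. No other member reversed in any comparison under the alternatives run. Signals below a normalized level of 6.08 to 6.52 were not detected, which limits IL12A, INMT, FGFBP1, G0S2, RIPOR2, HKDC1 and TMCC2.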
